A study of Mus musculus with 5 samples.

Results

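Oligodendrocyte precursor cells (OPCs) are described here as they appear in 5 libraries of nuclei from mouse hippocampus. A nucleus counted as an OPC when its UMIs (unique molecules of RNA counted after sequencing) of 7 marker genes, Pdgfra, Cspg4, Vcan, C1ql1, Lhfpl3, Cacng4 and Tnr, summed to at least 10 and to at least 20 per 10000 of its UMIs. It also needed at least 3 UMIs of Pdgfra, Cspg4 and Vcan together and at most 2 of the neuronal genes Gad1, Gad2 and Slc17a7. By these measured values 612 nuclei were chosen of the 28099 with at least 500 detected genes. The members were chosen by these RNA counts, so the marker levels of the members are a description and no finding.

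Each of the 5 groups is 1 library in which RNA and open chromatin were read from the same nuclei (10x Multiome). The groups are labelled wild type, 5xFAD, and 3 groups that carry 5xFAD together with a knockout of MAGL: astrocyte specific, neuron specific and global. The 4 groups other than wild type therefore share 5xFAD, a mouse model of Alzheimer's disease with mutant human transgenes driven in neurons by the Thy1 promoter. MAGL, encoded by Mgll, is the lipase that degrades a main endocannabinoid of the brain into a precursor of prostaglandins. The labels present the series as a study of MAGL loss in astrocytes of 5xFAD mice. Age, the number of mice behind a library, the Cre lines and the part of Mgll that was deleted are not given in the sources used here. With 1 library per group nothing could be tested between groups, and every difference below compares libraries, not conditions.

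OPCs carry the receptor PDGFRA and the proteoglycan NG2, divide through adult life and give rise to the oligodendrocytes that myelinate axons. The transcription factors OLIG2, SOX10 and NKX2-2 hold the lineage, growth factor signals through PDGFRA and FGF receptors keep the cells proliferating, and SPRY and ETV genes are induced by those signals. A precursor that commits to differentiation passes through a stage marked by GPR17, BMP4, NEU4 and ENPP6 before MYRF and TCF7L2 bring on the myelin genes. OPCs are also unusual among glia in receiving synapses from neurons, through AMPA-type and GABA receptors.

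The chromatin of these nuclei was not used to choose them. The 250 bases before the start of 4 genes are shown because 3 of them (Olig2, Lhfpl3 and Vcan) lie in a region listed as open in the wild type library, and because Pdgfra is the receptor that names the cells but had no such region over these bases. Sequences and positions are from RefSeq on GRCm38.p6, 5′ to 3′ on the strand of the gene. Capitals mark matches, on either strand, to the E-boxes CAGCTG and CATCTG (the letters read by bHLH factors such as OLIG2), to the SOX letters ACAAT and CTTTGT, and to the NFI letters TTGGC.
Olig2, chr16:91225300-91225549, plus strand: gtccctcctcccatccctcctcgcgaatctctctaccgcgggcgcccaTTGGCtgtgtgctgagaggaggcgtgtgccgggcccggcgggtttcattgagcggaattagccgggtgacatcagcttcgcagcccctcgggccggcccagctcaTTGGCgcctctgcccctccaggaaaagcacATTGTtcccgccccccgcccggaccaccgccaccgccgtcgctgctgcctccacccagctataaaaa
Lhfpl3, chr5:22745804-22746053, plus strand: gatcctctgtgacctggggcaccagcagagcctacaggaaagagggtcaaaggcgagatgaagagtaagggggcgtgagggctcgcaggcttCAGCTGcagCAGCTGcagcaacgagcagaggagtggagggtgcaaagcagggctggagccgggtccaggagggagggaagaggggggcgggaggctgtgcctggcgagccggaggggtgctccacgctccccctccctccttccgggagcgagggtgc
Vcan, chr13:89742513-89742762, minus strand: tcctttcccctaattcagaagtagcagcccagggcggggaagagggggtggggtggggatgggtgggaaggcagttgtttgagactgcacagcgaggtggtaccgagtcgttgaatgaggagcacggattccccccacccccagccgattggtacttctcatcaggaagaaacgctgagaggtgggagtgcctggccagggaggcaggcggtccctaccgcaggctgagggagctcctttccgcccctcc
Pdgfra, chr5:75152001-75152250, plus strand: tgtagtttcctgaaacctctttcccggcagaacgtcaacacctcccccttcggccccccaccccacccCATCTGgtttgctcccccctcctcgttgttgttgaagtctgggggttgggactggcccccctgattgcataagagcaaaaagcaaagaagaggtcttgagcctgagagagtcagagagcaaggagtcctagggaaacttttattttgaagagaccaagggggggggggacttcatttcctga

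Olig2, the lineage factor, held TTGGC at 202 and 97 bases before the start and ATTGT, the reverse complement of ACAAT, at 67 bases before it. Lhfpl3 held CAGCTG at 158 and 149 bases before the start, with 3 bases between both copies. Pdgfra held 1 CATCTG, and none of the motifs was found in the Vcan window. These are letter matches only, and they are common: CAGCTG was found in 13%, CATCTG in 14.4%, ACAAT in 27.7%, CTTTGT in 16.5% and TTGGC in 41.5% of 32851 RefSeq promoters of the same length.

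In the whole series a library held 4049 to 7480 nuclei with median UMIs of 14075 to 17363. OPC nuclei were shallower, with median UMIs of 6168 (wild type), 6703 (5xFAD), 5451 (labelled astrocyte specific MAGL-KO), 6896 (neuron specific MAGL-KO) and 5788 (global MAGL-KO). Their summed UMIs were 875836, 781035, 737750, 1099208 and 803444 in the same order, which is the depth behind each level below. Nuclei of both sexes were found in every library, and of the OPCs with a clear sign of sex, the share with Xist was 57.7%, 38.9%, 63.0%, 83.8% and 58.1% in that order. Between 3 and 6 members of a library had a barcode that also occurred in another library, and none of these was a member there. Mgll itself gave 134, 120, 133, 210 and 128 UMIs in OPCs, or 153, 154, 180, 191 and 159 per 1000000 UMIs (CPM), with no lower level in the libraries labelled MAGL-KO. In astrocytes Mgll was at 240.0, 197, 209, 269 and 159 CPM. UMIs from outside the deleted part would remain after a knockout, so these counts do not check the labels, and each MAGL-KO library is called by its label.

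OPCs made up 134 of 5235 nuclei in wild type (2.56%, Clopper-Pearson 95% interval 2.15 to 3.02), 104 of 5176 in 5xFAD (2.01%, 1.64 to 2.43) and 118 of 6159 in the library labelled astrocyte specific MAGL-KO (1.92%, 1.59 to 2.29). They made up 142 of 4049 in neuron specific MAGL-KO (3.51%, 2.96 to 4.12) and 114 of 7480 in global MAGL-KO (1.52%, 1.26 to 1.83). The highest and the lowest share were thus both in MAGL-KO libraries. All intervals in the text cover counting error only, not the differences between mice or dissections. Those of levels and log2 or fold ratios treat each UMI as independent, so they also leave out differences between nuclei. Set against the oligodendrocyte lineage alone, OPCs were 32.2% of OPCs and mature oligodendrocytes in wild type, 26.3% in 5xFAD, 28.7% in astrocyte specific, 35.3% in neuron specific and 37.3% in global MAGL-KO. The order of the libraries therefore depended on the denominator: the global MAGL-KO library was lowest among all nuclei and highest within the lineage, where it had 192 mature oligodendrocytes against 260 to 293 in the other libraries.

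**Figure D1:**
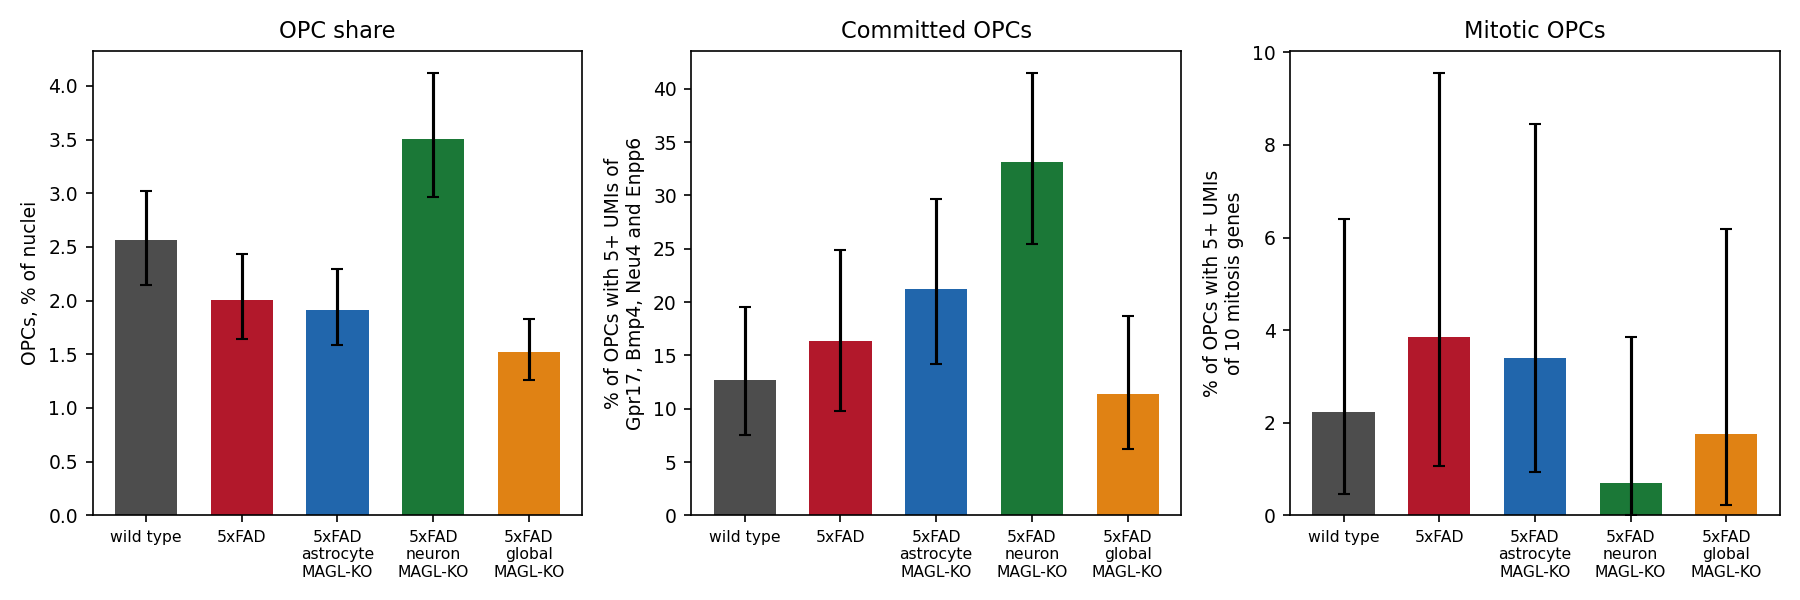
Shares of nuclei in the 5 libraries, in percent, as bars with 95% Clopper-Pearson intervals: OPCs among all nuclei, committed precursors among OPCs and mitotic nuclei among OPCs. The neuron specific MAGL-KO library has the highest bar for OPCs (3.51%) and for committed precursors (33.1%), and the mitotic bars rest on 1 to 4 nuclei each.

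Around the thresholds of the rule there were few nuclei, except at its neuronal limit. Members held 77.5 to 101 marker UMIs in the median of a library and at least 13, and none held 10 to 12. Only 3 members lay at 20 to 24 per 10000, and 2 nuclei of the global MAGL-KO library lay just outside at 15 to 19 per 10000. The limit on neuronal genes alone removed 23, 21, 22, 32 and 37 further nuclei, 135 in all.

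Every member had to pass the thresholds on the marker genes, so their levels are given with no comparison between libraries. Wild type OPCs had 523 CPM of Pdgfra, those of 5xFAD 489, astrocyte specific 497, neuron specific 544 and global MAGL-KO 429, and 78.8% to 86.8% of members had a UMI of it against 0.761% to 1.56% of other nuclei. Cspg4, the gene of NG2, was at 339, 277, 268, 318 and 284 CPM, and Vcan, the gene of versican, at 1084, 1251, 1440, 1235 and 1311 CPM.

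Factors of the oligodendrocyte lineage that the rule did not name were present in every library. Olig2 was at 83.3, 73.0, 81.3, 122 and 73.4 CPM in OPCs and at 23.3 in mature oligodendrocytes of all libraries. Sox10 was at 212, 205, 268, 260 and 142 CPM, next to 269 in mature oligodendrocytes, and Olig1 at 97.1, 78.1, 90.8, 116 and 88.4. Sox6, which holds the lineage before differentiation, was at 2625, 3041, 2592, 2995 and 2281 CPM against 11.3 in mature oligodendrocytes. Olig2, Nkx2-2 and Sox6 were thus higher in precursors than in mature cells, while Sox10 was at a like level in both.

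Genes that define other cells differed in their levels in OPCs. Flt1 and Cldn5 of endothelium, Kcnj8 of pericytes, Tmem119 of microglia and Col3a1 of fibroblasts had no UMI in any of the 5 sets of OPCs. The other markers of these cells were not all at 0. The 12 microglial markers, of which Tmem119 alone had no UMI, summed to 100.5, 131, 126, 157 and 139 CPM. These sums lay above the 64.3 to 121 of other nuclei in each library. Of 12 vascular and pericyte markers 7 were higher in OPCs than in other nuclei over all libraries, as were 6 of 12 fibroblast and choroid markers. The vascular sum was higher in OPCs of 5xFAD (21.8 against 11.1 CPM) and global MAGL-KO (24.9 against 9.07). The fibroblast sum was higher in global MAGL-KO alone (113 against 58.7). In the remaining libraries each sum was lower in OPCs. The 12 astrocyte markers summed to 1022, 1392, 987, 819 and 872 CPM in OPCs, above the 470 to 573 of other nuclei and below the 4944 to 10423 of astrocytes, and 11 of the 12 were higher in OPCs than in other nuclei. Among them the channel gene Aqp4 was at 9.1 to 25.6 CPM against 122 in astrocytes. The 14 neuronal markers summed to 4158, 3903, 4081, 3877 and 6790 CPM in OPCs, against 21647 to 23388 in other nuclei, so the global MAGL-KO library carried the most neuronal RNA among its OPCs. The labels call the source hippocampus brain cells and give no cell type, so the name of the nuclei rests on the rule that chose them. Leaving out members that held markers of other cell types kept 223 of the 612.

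**Figure D2:**
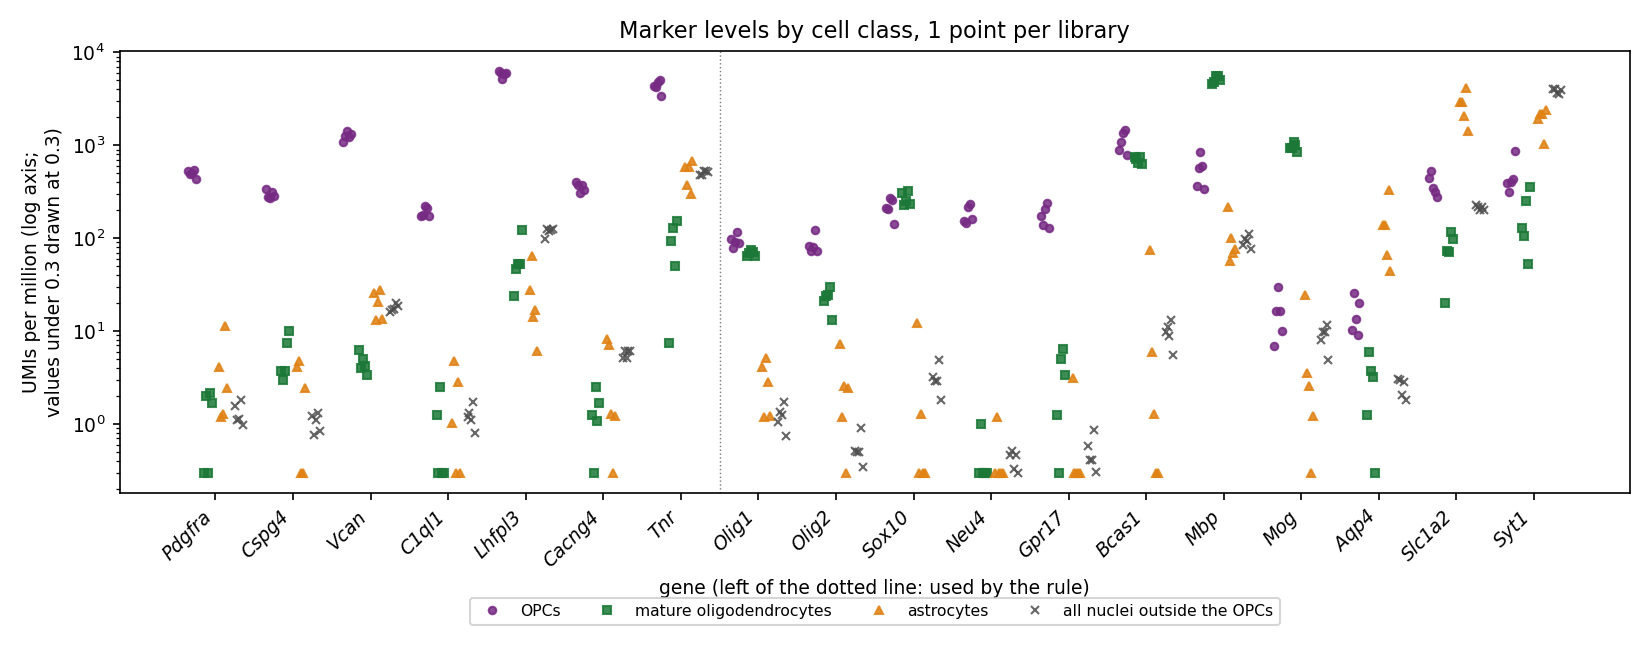
Levels of marker genes in CPM on a log axis, for OPCs, mature oligodendrocytes, astrocytes and all nuclei outside OPCs, with 1 point per library and values under 0.3 drawn at 0.3. The 7 genes left of the dotted line chose the nuclei, and Pdgfra lies between 429 and 544 CPM in the 5 sets of OPCs.

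The genes with the highest ratio of OPCs to all other nuclei described the same lineage, and since the rule chose nuclei by RNA this ranking is a description. Among genes with at least 200 UMIs in members, Neu4, a sialidase, led with 186 CPM, 462-fold over other nuclei. Pdgfra followed at 392-fold and Gpr17, an orphan receptor of committed precursors, at 371-fold. Behind them came Rlbp1, a retinoid binding protein (320-fold), S100a2 (311-fold), Cspg4 (292-fold), Bmp4 (214-fold) and Olig2 (170-fold). Slc5a7, the choline transporter of cholinergic neurons, was also among the 20 leading genes, with 46.5 CPM and 136-fold. Ednrb, the endothelin receptor, was 103-fold over other nuclei but only 1.91-fold over astrocytes. In the neuron specific MAGL-KO library Ednrb was lower in OPCs than in astrocytes, at 144 against 157 CPM.

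Some receptor and channel genes were high in OPCs while their lists as a whole were not. The 19 glutamate receptors summed to 15133 CPM in wild type OPCs against 21360 in other nuclei, with 8 of 19 higher in OPCs over all libraries. The 13 GABA receptors summed to 2104 against 5624 CPM and the 20 ion channels to 10462 against 12834, with 2 and 7 genes higher. Adhesion and synapse organising genes were the other way, at 63256 against 41137 CPM and 17 of 20 higher. Gria2, an AMPA receptor subunit, was at 1562, 1794, 1694, 1719 and 1623 CPM, and Gria4 at 1177, 1269, 1064, 1071 and 1090. Kcnd2, an A-type potassium channel, was at 5387, 4879, 4229, 4209 and 4697 CPM, highest in wild type. Ptprz1, a receptor phosphatase bound by matrix proteins of the perineuronal net, was at 2892, 2549, 2421, 2623 and 2468 CPM. These 4 genes lay within 1.5-fold of one another across the 5 libraries.

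Open chromatin gave a readout that the rule did not use. It is counted as cut sites of the transposase in the deposited peaks within 1000 bases of a gene's listed start, per 1000000 cut sites in peaks of the nuclei compared (cut-site CPM). The median OPC had 7701, 6137, 5837, 7107 and 7266 cut sites in peaks. At the Vcan promoter, OPCs had 33.4 cut-site CPM in wild type, 27.5 in 5xFAD, 41.4 in astrocyte specific, 29.6 in neuron specific and 29.3 in global MAGL-KO. Over all libraries this was 31.9 against 3.04 in other nuclei, or 10.5-fold. C1ql1, which encodes a secreted protein of the C1q family, had 73.3, 53.9, 68.2, 71.5 and 42.3 cut-site CPM, 9.58-fold over other nuclei. Cacng4, an auxiliary subunit of AMPA receptors, had 79.8, 88.3, 49.9, 80.8 and 72.7, which was 8.51-fold over other nuclei and 48.7-fold over mature oligodendrocytes. The promoters of these 3 markers were thus more open in OPCs in each library.

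Pdgfra itself was only 2.70-fold more open at its promoter, with 26.2 cut-site CPM in OPCs, 18.6 in mature oligodendrocytes and 9.69 in other nuclei. The Cspg4 promoter had no listed peak.

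Among the lineage factors, some promoters were as open in mature oligodendrocytes as in OPCs and others were not. Olig1 had 56.1 cut-site CPM in OPCs and 71.4 in mature oligodendrocytes, against 5.15 in other nuclei. Olig2 had 66.8, 83.7, 81.6 and 83.5 in wild type, 5xFAD, neuron specific and global MAGL-KO, and in the astrocyte specific MAGL-KO library no peak was listed there. Myt1, a zinc finger factor of progenitors, had 23.6-fold more than mature oligodendrocytes. Gpr17 had 143, 140.0, 106, 129 and 110.0 cut-site CPM, 47.2-fold over other nuclei and 3.06-fold over mature oligodendrocytes.

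Promoters of myelin genes were mostly less open in OPCs than in mature oligodendrocytes, though not against all other nuclei. Mog had 5.32 cut-site CPM against 73.6 in mature oligodendrocytes, Mag 11 against 109, and Ermn, a cytoskeletal protein of late oligodendrocytes, 1.97 against 71.4. Of 10 myelin genes with at least 20 cut sites, 1 was higher in OPCs than in mature oligodendrocytes, with a median ratio of 0.158, while 45.3% of all genes were higher. Against other nuclei 6 of the 10 were at least 2-fold more open in OPCs, with a median of 2.10-fold, as were 9 of 14 progenitor transcription factors with 2.47-fold, where 15.0% of all 15927 genes were. A gene with several starts is listed with an interval over all of them, which for Tnr, Lhfpl3 and Sox5 takes in many peaks, so no promoter value is given for these.

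Regions open in OPCs were chosen in the wild type library and then read in the other 4, whose values the choice did not use. In wild type, 2908 of 14641 peaks with enough cut sites were at least 4-fold higher in OPCs than in other nuclei, with a median of 9.37-fold and 882 bases. In the other libraries 92.7%, 82.2%, 94.2% and 84.4% of them were listed again, against over 99% of other peaks. Of those listed again, the median was 8.06-fold in 5xFAD, 6.98-fold in astrocyte specific, 8.23-fold in neuron specific and 6.91-fold in global MAGL-KO. The other peaks sampled from the same wild type set had medians of 1.42-fold, 1.46-fold, 1.49-fold and 1.42-fold. At least 2-fold was reached by 95.8%, 95.4%, 96.9% and 95.1% of the OPC-high peaks, against 18.0% to 20.5% of the others. These shares leave out the regions not listed again: 2205 of the 2908 were listed in all 4 libraries, and 1923 were at least 2-fold higher in OPCs in all 4.

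OPC-high peaks lay away from gene starts: 13.5% were at promoters, 49.6% in gene bodies and 36.9% between genes, while 70.9% of the other peaks were at promoters. In mature oligodendrocytes 42.8% of them were at most 2-fold below the OPC level, and 37.2% were at least 5-fold higher in OPCs than there.

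**Figure D3:**
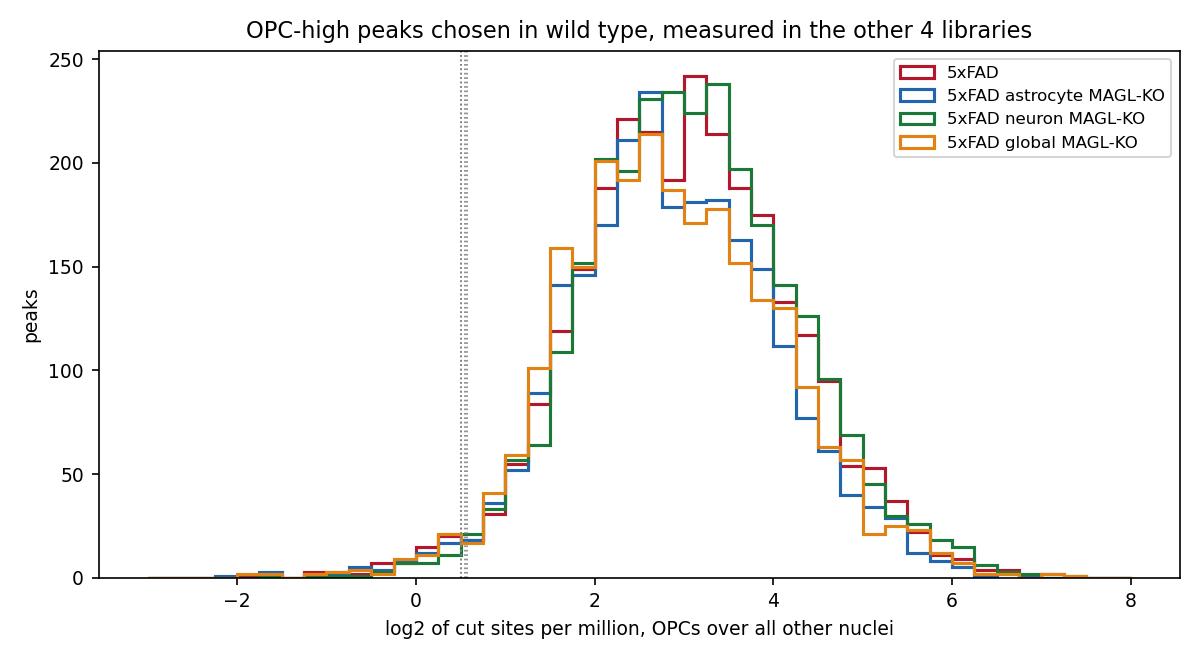
Distribution of the log2 ratio of cut-site CPM in OPCs over other nuclei, in 4 libraries, for peaks chosen as OPC-high in wild type. The dotted lines give the medians of other peaks, and the histograms lie to the right of them, with medians of 6.91-fold to 8.23-fold.

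Individual regions, in mm10 coordinates of the wild type file, showed both shared and private patterns. A region at chr16:91305320-91306225, 36000 bases from the start of Olig1, had 165 cut-site CPM in OPCs, 113 in mature oligodendrocytes and 4.1 in other nuclei. A region at chr4:22488023-22488904, at the promoter of the POU factor gene Pou3f2, had 147 in OPCs and 105 in astrocytes but 1.9 in mature oligodendrocytes. A region in the body of Myt1 at chr2:181795453-181796353 had 103 in OPCs and 1.2 in other nuclei. The first was thus shared with mature oligodendrocytes and the next with astrocytes. A region at chr6:49020972-49021781, 15170 bases upstream of Gpnmb, had 110 in OPCs, 71.4 in astrocytes and 2.4 in mature oligodendrocytes, and stood 30-fold to 53-fold above other nuclei in the 5 libraries. At Pdgfra an OPC-high region lay in the gene body, chr5:75163105-75164028, with 65 cut-site CPM in OPCs against 0.7 in other nuclei. It was listed again in 5xFAD and neuron specific MAGL-KO, and no peak was listed there in the astrocyte specific and global MAGL-KO libraries.

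Most genes with several such regions were also high in RNA, which chose the nuclei and is given as a description. The 84 measured genes with at least 3 OPC-high peaks had a median RNA level 8.25-fold over other nuclei, and 71.4% reached 2-fold, against 1.19-fold and 18.5% for all genes. The measured genes with the most such peaks, 6 or 7 each, differed in RNA: Chst11, a sulphotransferase of chondroitin chains, was 5.34-fold over other nuclei with 7 peaks, Xylt1, a xylosyltransferase, 8.36-fold with 7, and Fgfr2, an FGF receptor, 1.11-fold with 7. Tns3, a tensin, was 30.5-fold with 6 peaks and Abtb2 103-fold with 6.

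Committed precursors, called here by at least 5 UMIs of Gpr17, Bmp4, Neu4 and Enpp6 together, were found among OPCs of every library. They were 17 of 134 in wild type (12.7%, 7.57 to 19.5), 17 of 104 in 5xFAD (16.3%, 9.82 to 24.9) and 25 of 118 in the library labelled astrocyte specific MAGL-KO (21.2%, 14.2 to 29.7). They were 47 of 142 in neuron specific MAGL-KO (33.1%, 25.4 to 41.5) and 13 of 114 in global MAGL-KO (11.4%, 6.21 to 18.7). The neuron specific MAGL-KO library was highest, and its interval did not overlap those of wild type, 5xFAD and global MAGL-KO. The neuron specific library was also the deepest in OPC UMIs, and 83.8% of its sexed OPCs carried Xist. Among nuclei with Xist the shares were 16.9%, 11.4%, 25.4%, 33.3% and 12%, and among nuclei with Y-linked UMIs 7.69%, 18.2%, 16.2%, 31.8% and 11.1%. The neuron specific MAGL-KO library had the highest share in nuclei of either sex, but most intervals overlapped. Its Y-linked share was 7 of 22 nuclei (13.9 to 54.9), which overlapped every other library. Its Xist share was 38 of 114 (24.8 to 42.8), which overlapped every other library except global MAGL-KO (4.53 to 24.3). With every OPC thinned to 1000 UMIs, the share with a UMI of the 4 genes was 26.9%, 26.0%, 41.5%, 40.8% and 33.3%, against 70.9%, 76.0%, 91.5%, 87.3% and 75.4% before thinning. By this measure the astrocyte specific MAGL-KO library was the highest before and after thinning, next to the neuron specific one. The share with at least 2 UMIs of the 4 genes was 11.2%, 12.5%, 15.3%, 19.0% and 7.89% after thinning, highest in the neuron specific library, against 50.7%, 53.8%, 66.9%, 66.9% and 51.8% before. At the 5 UMIs of the definition, the share after thinning was 0.746%, 0.962%, 0.847%, 3.52% and 4.39%, on few nuclei. By that measure the global MAGL-KO library was the highest, so the order of the libraries after thinning depended on the threshold.

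The class is a cut through a range and not a type of its own: 22 to 28 members of each library held 3 or 4 UMIs of the set. Beside the 119 committed OPCs, 83 nuclei outside the OPCs passed the same cut, 18, 18, 14, 20 and 13 in the order of the libraries. The shares of committed OPCs leave these out, and how far the rule itself left out committed nuclei was not tested.

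Committed nuclei were set against the other OPCs with UMIs summed over the 5 libraries. The cut used RNA of the same nuclei, so these levels are a description, and its 4 genes are left out. St18, a zinc finger factor of maturing oligodendrocytes, was at 2033 CPM in committed and 38.8 in other OPCs, 52.4-fold, and higher in 5 of 5 libraries. Mbp, the main basic protein of myelin, was at 2030 against 63.7 CPM (31.9-fold). Bcas1, which marks newly formed oligodendrocytes, was at 3475 against 386, Fyn, a kinase of myelin initiation, at 3195 against 332, and Tcf7l2 at 1194 against 154 CPM. All of these were higher in 5 of 5 libraries. Myrf, the factor that switches on myelin genes, was 5.26-fold higher at 81.0 against 15.4 CPM.

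All 10 measured myelin genes and the 8 other genes of the committed list were at least 1.5-fold higher in committed OPCs, while 14.1% of all 7894 genes were higher and 20.6% lower by that measure. The list medians were log2 4.08 and 2.71, with -0.02 for all genes.

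The list of growth factor receptors and their feedback genes went the other way. Of 12 measured, 9 were at least 1.5-fold lower in committed OPCs and none was higher, with a median of log2 -1.36. Spry4 was at 7.6 CPM in committed and 42.5 in other OPCs, Spry2 at 9.5 and 46.8, and Spry1 at 10.5 and 47.7. Etv5, an ETS factor downstream of FGF signals from the list of progenitor factors, was at 36.2 and 149 CPM. Of the rule markers, Pdgfra was at 180.2 and 604 and Cspg4 at 123 and 357 CPM. These were lower in committed OPCs in 5 of 5 libraries.

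Most ion channels and GABA receptors were also lower, 14 of 20 and 10 of 13, with list medians of log2 -0.81 and -0.92. Of 18 glutamate receptors 7 were lower and 1 was higher, with a median of -0.33. The sodium channel gene Scn1a was at 71.5 against 237 CPM, Kcnd2 at 2172 against 5471 and the kainate receptor gene Grik1 at 125 against 456. Gria2 was an exception at 2749 against 1333 CPM, 2.06-fold higher. Tnr, the gene of tenascin-R and itself a marker of the rule, was 2.41-fold higher in committed OPCs, where 5 of the 7 rule genes were lower. Top2a, a topoisomerase of dividing cells, had no UMI in committed OPCs and 118 UMIs in the others. Committed OPCs were deeper, with median UMIs of 7160 to 8555 in a library against 5297 to 6602, and the part of depth in these differences was not tested, though levels are given in CPM.

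**Figure D4:**
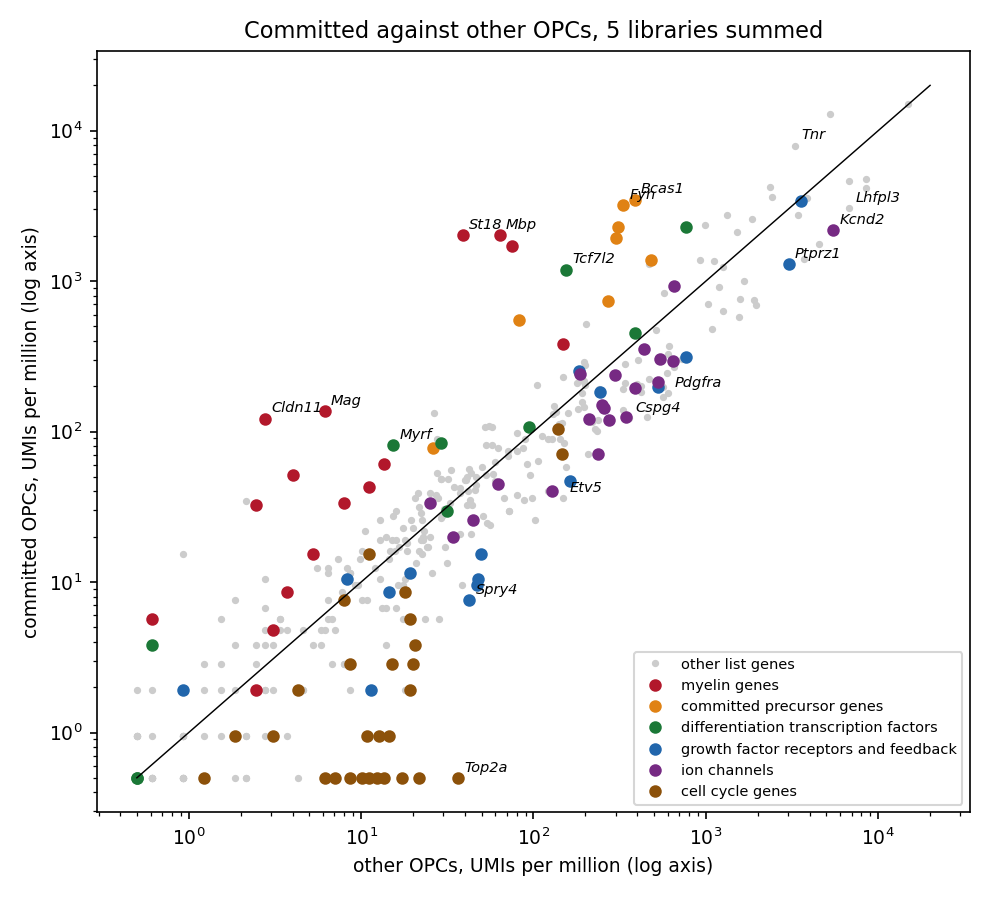
Level of each gene of the lists in CPM in committed OPCs against other OPCs, summed over 5 libraries, on log axes, with values under 0.5 drawn at 0.5 and gene lists in colour. Most myelin genes lie above the diagonal, with Mbp at 2030 against 63.7 CPM, and most growth factor genes below it, with Spry2 at 9.5 against 46.8 CPM.

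The chromatin of committed OPCs was not used to choose them, and the promoters of some late genes were more open in it. Mag had 42 cut sites in committed and 14 in other OPCs, 10.1-fold after scaling to the totals, and Mog 21 and 6, or 11.8-fold. Fyn was 1.96-fold and Tns3 1.58-fold more open in committed OPCs, in 5 of 5 libraries. Cacng4 (0.554-fold) and Olig1 (0.473-fold) were less open there in 5 of 5 libraries. The promoter of Gpr17 itself differed little, at 1.04-fold, as did those of Vcan (1.00-fold) and C1ql1 (1.03-fold).

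Mitotic OPCs, called by at least 5 UMIs of 10 cell division genes, were few: 3, 4, 4, 1 and 2 nuclei, or 2.24%, 3.85%, 3.39%, 0.704% and 1.75% of OPCs. The intervals of the 5 shares overlapped. Of the UMIs of these genes in OPCs, 74.1% to 94.8% came from those nuclei, so the levels of these 10 genes rest mostly on 1 to 4 nuclei. Diaph3 and Pola1, cell division genes outside that set, are read apart, and Diaph3 had UMIs in 40 to 57 OPCs of each library. No nucleus was both mitotic and committed.

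The first comparison sets the disease model, 5xFAD, against wild type. A gene is called when its CPM in summed OPCs differed at least 1.5-fold, among genes with at least 60 UMIs in both libraries together, and log2 ratios have a 95% interval for counting error. In OPCs 7.68% of 4389 genes were called, 164 higher (3.74%) and 173 lower (3.94%) in 5xFAD, with a median log2 ratio of 0.01. None of 18 ion channels, 13 matrix genes or 20 adhesion genes was called, which is little below the share of all genes in lists of that size. Outside the lists of other cell types the calls were 1 of 11 progenitor factors (Etv4, lower), 1 of 5 differentiation factors (Zfp488, lower), 1 of 17 glutamate receptors (Grin2a, higher, at 0.78) and 1 of 11 GABA receptors (Gabra4, higher), besides those of the growth factor, myelin and cell division lists below. Grin2a was at -2.44 in OPCs with Xist alone, 43.5% of its UMIs in 5xFAD lay in 1 nucleus, and other nuclei held 2258 and 2179 CPM of it against 143 and 245 in OPCs of wild type and 5xFAD.

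Of 11 measured growth factor genes 3, all of the Spry family, were lower in 5xFAD and none was higher, with a list median of -0.15 (-0.40 to 0.17). Spry2, a feedback inhibitor of receptor kinases, was at 58.2 CPM in wild type OPCs, 25.6 in 5xFAD, 31.2 in astrocyte specific, 40.0 in neuron specific and 29.9 in global MAGL-KO, a log2 ratio of -1.19 (-2.01 to -0.41) for 5xFAD against wild type. Wild type was the highest of the 5. Spry1 and Spry4 were both at -0.62, with intervals that include 0 (-1.45 to 0.17 and -1.39 to 0.13). Etv4, an ETS factor induced by the same signals, was at 100.5, 61.5, 71.8, 79.1 and 57.3 CPM, with -0.71 (-1.25 to -0.19). Wild type was again the highest. In OPCs with Xist alone the ratio of Spry2 was 0.45 and that of Etv4 0.02, so the direction did not hold in nuclei of that sex. Pdgfra was at -0.10 (-0.30 to 0.10).

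Of the myelin genes, Mbp was higher in OPCs of 5xFAD. It was at 366 CPM in wild type and 574 in 5xFAD, log2 0.65 (0.44 to 0.86), and was the 1 called of 4 measured myelin genes, with a list median of 0.42. Without the committed nuclei, an alternative chosen after seeing the data, the list median was 0.13, and in OPCs with Xist alone that median was -0.080. None of 11 measured genes of the committed list was called, with Enpp6 at 0.55, and at -0.021 in OPCs with Xist alone. Myrf had 11 UMIs in wild type and 28 in 5xFAD, under the minimum of 60, a 2.85-fold higher level (1.38 to 6.35).

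C4b, the complement component that oligodendrocytes are known to raise around amyloid, had 1 UMI in wild type OPCs and 20, 14, 33 and 27 in the 4 libraries with 5xFAD. It was detected in 0.746% of OPCs in wild type and in 13.5%, 7.63%, 14.8% and 15.8% of those in the others, against 0.647% of all other nuclei in wild type and 1.60% to 4.74% in the others. All 4 libraries with 5xFAD were thus above wild type, by 22.4-fold (3.59 to 930.0) for 5xFAD itself. Mature oligodendrocytes had 5.0 CPM in wild type and 143, 164, 221 and 137 in the others, and all other nuclei 0.33, 1.96, 1.91, 3.53 and 1.11. The part that oligodendrocyte RNA takes in the OPC value was not tested. Serpina3n, another gene raised in glia near plaques, had 4, 1, 5, 6 and 9 UMIs and no such pattern.

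Ermard, Prag1 and Cmtm4 were called in 5xFAD against wild type. Ermard, an endoplasmic reticulum protein, was at 25.1, 87.1, 69.1, 71.0 and 92.1 CPM, with log2 1.79 (1.08 to 2.56), while in other nuclei it was at 16.0 and 17.1 CPM in wild type and 5xFAD. Prag1 was at 36.5, 81.9, 85.4, 65.5 and 49.8 CPM, with 1.17 (0.53 to 1.83), and Cmtm4 at 103.9, 41.0, 58.3, 73.7 and 63.5, with -1.34 (-1.97 to -0.75). In these genes wild type was lowest or highest of the 5, though Prag1 in global and Cmtm4 in neuron specific MAGL-KO lay within 1.5-fold of it. Pik3r3, a regulatory subunit of PI3 kinase, was at 401, 837, 716, 607 and 337 CPM, log2 1.06 (0.87 to 1.25), lower in global MAGL-KO than in wild type, and at -0.42 for 5xFAD without committed nuclei.

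Of 2 measured cell division genes Diaph3 was higher in 5xFAD, at 129 and 198 CPM, log2 0.62 (0.26 to 0.98). Top2a, under the minimum of 60 UMIs here, had 6 UMIs in wild type, 47 in 5xFAD, 29 in astrocyte specific, 13 in neuron specific and 23 in global MAGL-KO, 8.78-fold (3.75 to 25.1) for 5xFAD against wild type. Mki67, the proliferation antigen, had 2, 19, 25, 9 and 16. The number of mitotic nuclei, 3 in wild type and 4 in 5xFAD, was alike, and the most UMIs of the set in 1 nucleus were 8 in wild type against 85 in 5xFAD.

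None of 5 measured Notch and BMP genes was called. Under the minimum, the Notch target Hes1 had 23 UMIs in wild type and 6 in 5xFAD, 0.293-fold (0.0974 to 0.739) after scaling, and Hes5, another Notch target, had 31 and 27, 0.977-fold (0.561 to 1.69). Id2, an inhibitor of bHLH factors, had 27 and 9, 0.374-fold (0.155 to 0.819). Genes named under the minimum were picked from the lists. With a minimum of 20 UMIs in place of 60, 675 genes were called higher and 794 lower in this comparison, against 164 and 173.

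**Figure D5:**
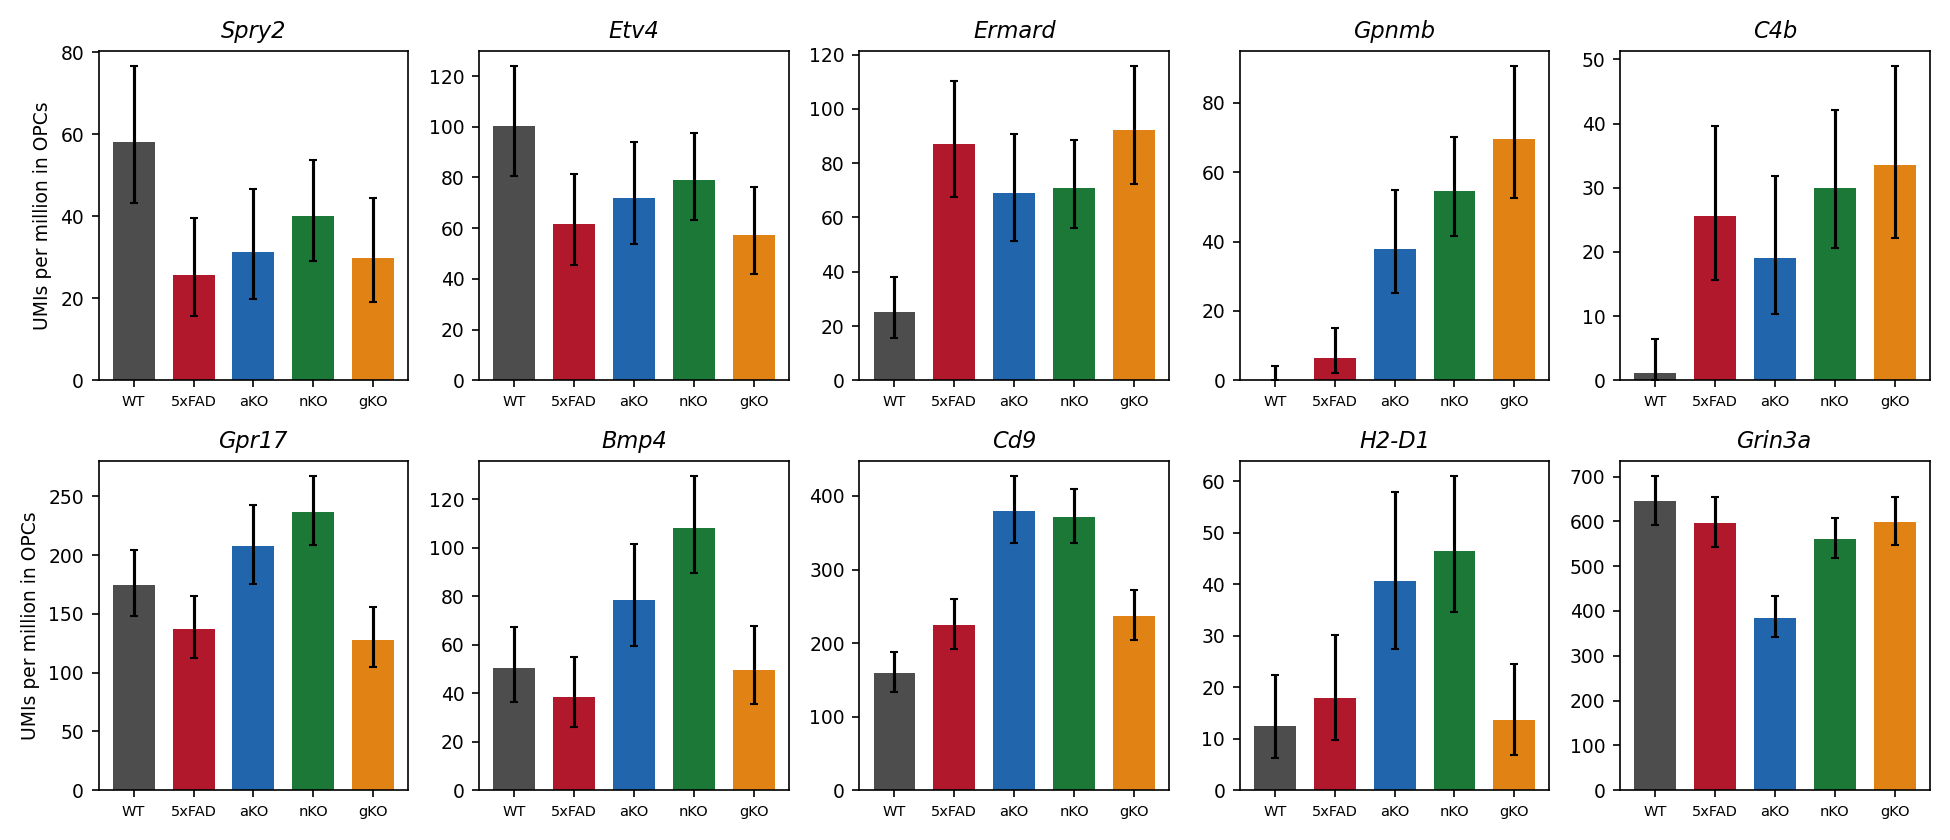
Levels of 10 genes in summed OPCs of the 5 libraries (WT wild type, 5xFAD, aKO, nKO and gKO for 5xFAD with astrocyte specific, neuron specific and global MAGL-KO), in CPM, with exact Poisson 95% intervals. Gpnmb has no UMI in wild type and 69.7 CPM in global MAGL-KO, and C4b is at 1.14 CPM in wild type and at 19.0 to 33.6 in the other 4.

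The next 3 comparisons set each MAGL-KO library against 5xFAD and share that 1 library, so a value that is extreme in 5xFAD enters all of them. The question is how the mouse model differs when MAGL is missing from astrocytes, from neurons or from all cells.

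In the library labelled astrocyte specific MAGL-KO, 10.9% of 4229 genes were called in OPCs, 311 higher (7.35%) and 149 lower (3.52%) than in 5xFAD, with a median of 0.02. None of 17 ion channels was called. The committed list had 2 genes higher and none lower of 11, all 11 above 0, with a median of 0.31. Gpr17 was at 137 CPM in 5xFAD and 207 in this library, log2 0.60 (0.23 to 0.97), and Bmp4 at 38.4 and 78.6, 1.03 (0.37 to 1.72). Neu4 was short of the call at 0.56 and Enpp6 at 0.30.

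Of 5 measured myelin genes Mag was called, at 35.9 and 66.4 CPM and 0.89 (0.19 to 1.61), with a list median of 0.46. In OPCs with Y-linked UMIs alone that median was -0.20 and that of the committed list -0.02.

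The disease-associated glial list had 2 genes higher of 9, Ctsb and Cd9. Cd9, a tetraspanin of myelinating cells, was at 159 CPM in wild type OPCs, 224 in 5xFAD, 380 in astrocyte specific, 371 in neuron specific and 236 in global MAGL-KO, with log2 0.76 (0.48 to 1.04) here. The astrocyte specific and neuron specific libraries were the highest. In mature oligodendrocytes Cd9 was at 157, 197, 237, 209 and 185 CPM.

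Glutamate receptor genes moved both ways, 3 higher and 3 lower of 18. Grin3a, an NMDA receptor subunit found in OPCs, was at 645, 597, 385, 561 and 599 CPM, with -0.63 (-0.85 to -0.42), and 72.0% of OPCs had a UMI against 88.5% in 5xFAD. The astrocyte specific MAGL-KO library was the lowest of the 5. Grik3, a kainate receptor subunit, was at 129, 163, 93.5, 123 and 141 CPM, with -0.80 (-1.24 to -0.36), again lowest in that library. The genes that were higher, Grin1, Grin2b and Grm7, are abundant in neurons. Grin2b was at 0.68 in OPCs and, without likely doublets, at -0.03.

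Of 3 measured cell division genes 2 were lower, Diaph3 at -0.75 and Top2a at -0.61, the latter at 0.34 in OPCs with Xist alone. Top2a passed the minimum in part through its 47 UMIs in 5xFAD. Lama2, a laminin chain, was at 44.5, 70.4, 9.49, 12.7 and 16.2 CPM, with -2.89 (-4.27 to -1.75), and 5.08% of OPCs had a UMI against 8.65% in 5xFAD. Mature oligodendrocytes held more of it, at 486 and 438 CPM in 5xFAD and in this library. Tuba1a, a tubulin of growing processes, was at 61.7, 62.7, 159, 161 and 46.1 CPM, with 1.34 (0.85 to 1.85). In other nuclei it was at 21.4 CPM in 5xFAD and 44.1 in this library, so the difference was not limited to OPCs. Ptgds, a prostaglandin synthase, led the ranking at 2.10, but 86% of its UMIs lay in 1 nucleus, and without the leading nuclei it was at -0.15. Ptgds too was higher in mature oligodendrocytes, at 1639 and 2260 CPM. Astrocyte markers had 2 genes lower of 5, Slc1a2 and Slc4a4, with a median of -0.46, which was 0.099 without committed nuclei, 0.054 without likely doublets and 0.10 in OPCs with Y-linked UMIs alone. Neuronal markers had a median of 0.39, with Meg3 called. Their part in the differences was not tested.

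In the library labelled neuron specific MAGL-KO, 12% of 4927 genes were called, 374 higher (7.59%) and 218 lower (4.42%) than in 5xFAD, with a median of 0.02. All 12 measured genes of the committed list lay above 0, 5 of them called, with a median of 0.51. Bmp4 was at 38.4 CPM in 5xFAD and 108 in this library, log2 1.49 (0.91 to 2.12), Gpr17 at 137 and 236, 0.79 (0.46 to 1.13), and Neu4 at 147 and 236, 0.68 (0.36 to 1.01). Fyn was at 838, 894, 1193, 1446 and 656 CPM in the 5 libraries, 0.69 (0.56 to 0.82). This library was the highest of the 5 in each of these 4 genes. Without committed nuclei the list median was 0.12, and without nuclei that held markers of other cell types, which leaves 42 of the 142 OPCs, it was -0.054, and so was Gpr17.

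Of 11 measured progenitor factors 2 were higher, Olig2 and Nkx2-2, and of 6 measured differentiation factors 1, Zfp488, with none lower in either list. Olig2 was at 73.0 and 122 CPM, 0.74 (0.28 to 1.21), Nkx2-2 at 61.5 and 93.7, 0.61 (0.10 to 1.13), and Zfp488, a cofactor of OLIG2, at 28.2 and 61.0, 1.11 (0.40 to 1.88). The median of the progenitor factors was 0.34, and -0.06 in OPCs with Xist alone. None of 6 measured myelin genes was called, with a median of 0.47, and -0.36 without nuclei that held markers of other cell types.

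Fgfr2 (0.66), Spry1 (0.60) and Spry2 (0.64) were called higher and Fgfr1 (-0.66) lower, where the intervals of Spry1, Spry2 and Fgfr1 include 0.

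Some genes of antigen presentation and the interferon response were higher in OPCs of this library. H2-D1, an MHC class I heavy chain, was at 12.6, 17.9, 40.7, 46.4 and 13.7 CPM in the 5 libraries, with 1.37 (0.50 to 2.34). B2m, its light chain, was at 28.5, 32.0, 43.4, 59.1 and 36.1, with 0.89 (0.20 to 1.61), and Ifi27 at 22.8, 28.2, 38.0, 52.8 and 32.4, with 0.91 (0.18 to 1.68). Of the 19 genes of the list 4 had enough UMIs, and all 4 were called higher. The minimum of 60 UMIs is summed over both libraries, so a gene low in 5xFAD passes more readily if it is high here. H2-D1 passed with 14 UMIs in 5xFAD and 51 here, so the count of 4 of 4 depends in part on the minimum. H2-K1, under the minimum, had 15 and 32, 1.52-fold (0.797 to 3.01). The astrocyte specific and neuron specific libraries held the highest levels of H2-D1, B2m and Ifi27. The median was 0.90, and 0.11 in OPCs with Y-linked UMIs alone. H2-D1 was also at 21.8, 53.2 and 88.4 CPM in mature oligodendrocytes of 5xFAD, astrocyte specific and neuron specific MAGL-KO, and at 3.96, 5.39 and 6.71 in all other nuclei. The higher level was thus not limited to OPCs. The microglial markers summed to 131 CPM in OPCs of 5xFAD and 157 in this library, and their part was not tested.

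All 3 measured cell division genes were lower, Diaph3 at -0.97, Pola1 at -0.81 and Top2a at -2.35, the last with all its UMIs in 1 nucleus here. Of the 28 genes of the list only these 3 reached the minimum of 60 UMIs over both libraries. Top2a reached it with 47 UMIs in 5xFAD and 13 here, so the count of 3 of 3 depends in part on the minimum. Col9a3, a collagen chain, was at 40.0, 35.9, 78.6, 73.7 and 28.6 CPM, with 1.04 (0.40 to 1.71) here and 1.13 (0.46 to 1.84) in the astrocyte specific MAGL-KO library, but at -0.08 here without committed nuclei. Cd9 was at 0.73 (0.47 to 0.99). Of 5 astrocyte markers 2 were lower, with a median of -0.52, which was 0.046 in OPCs with Y-linked UMIs alone and -0.044 without likely doublets.

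Gpnmb, a membrane glycoprotein known from microglia around amyloid, had 0 UMIs in wild type OPCs, 5 in 5xFAD, 28 in astrocyte specific, 60 in neuron specific and 56 in global MAGL-KO. The levels were 6.40, 38.0, 54.6 and 69.7 CPM in the 4 libraries with 5xFAD. No wild type OPC of 134 had a UMI. With 3 counts as the limit for a count of 0, this allows a share with a UMI of up to 2.24% (3 of 134, counting error only). That limit is not a Clopper-Pearson interval, unlike those of the other shares. The share was 4.81% in 5xFAD, 15.3% in astrocyte specific, 14.1% in neuron specific and 14.9% in global MAGL-KO. Of all other nuclei, 2.51% had a UMI in wild type, 2.66% in 5xFAD and 4.02% to 5.50% in the MAGL-KO libraries. The 3 MAGL-KO libraries were the highest, with log2 3.09 (1.79 to 4.77) in neuron specific and 3.44 (2.14 to 5.12) in global MAGL-KO. With only 5 UMIs in 5xFAD, Gpnmb passed the minimum of 60 in these 2 comparisons through the libraries where it is high. In the astrocyte specific library, with 28 UMIs, it stayed under the minimum. It is named because it led the rankings of 3094 and 2642 genes, so its large ratios are a selected result. In all other nuclei Gpnmb was at 1.48, 1.56, 4.36, 3.46 and 2.60 CPM, also higher in the MAGL-KO libraries. The 12 microglial markers summed to 131, 126, 157 and 139 CPM in OPCs of the 4 libraries with 5xFAD and to 100.5 in wild type, and their part in the Gpnmb level was not tested.

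In the library labelled global MAGL-KO, 12.2% of 4288 genes were called, 318 higher (7.42%) and 206 lower (4.8%) than in 5xFAD, with a median of -0.02. Of 4 measured myelin genes 3 were lower, with a median of -0.71. Mbp was at 574 CPM in 5xFAD and 342 here, log2 -0.74 (-0.97 to -0.53). St18 was at 450.0, 506, 632, 709 and 279 CPM, with -0.86 (-1.10 to -0.62), and Tcf7l2 at 358, 424, 487, 508 and 238, with -0.83 (-1.10 to -0.57). This library was the lowest of the 5 in each of these 3 genes, though it was close to wild type in Mbp.

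Of 11 measured genes of the committed list Enpp6 (-0.65) and Sirt2 (-0.64) were lower, with a median of -0.40, and Gpr17 was at -0.10. With each OPC thinned to 1000 UMIs Enpp6 was at 0.17 and the median at -0.046, and with the mean of CPM over nuclei the median was -0.12. Without committed nuclei the myelin median was 0.11 and Mbp was at 0.17, so these did not keep the lower level among the other OPCs, while St18 was at -0.65 and Tcf7l2 at -0.059 there.

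None of 11 progenitor factors or 8 growth factor genes was called. Pik3r3 was at -1.31 (-1.52 to -1.11), and at 0.37 without committed nuclei. Kcnj10, the inward rectifier potassium channel that OPCs share with astrocytes, was at 53.7, 57.6, 75.9, 67.3 and 32.4 CPM, with -0.83 (-1.59 to -0.10).

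Neuronal genes were higher in OPCs of the global MAGL-KO library. Of 8 measured neuronal markers 6 were higher, with a median of 0.99, among them Syt1 (1.49), Rbfox3 (1.30) and Meg3 (2.00). The glutamate receptors that were called higher, Grin2b (1.90), Gria1 (1.08), Grm7 (1.15) and Grin1 (0.93), are all higher in neurons, with Grin2b at 114 CPM in OPCs of 5xFAD, 424 in those of this library and 1804 in its other nuclei. In OPCs with Y-linked UMIs alone the neuronal median was -0.28, and Grin2b was at -0.69, Gria1 and Syt1 at -0.54. The neuronal level and the receptor level thus moved together, and their relation was not tested. Gria2 and Gria4, which had high levels in OPCs, were within 1.5-fold.

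Diaph3 (-0.75) and Top2a (-1.07) were lower here too, in a comparison that shares the 5xFAD library with the others, but Top2a was at 0.34 in OPCs with Xist alone. Here too Top2a passed the minimum in part through its 47 UMIs in 5xFAD. Tshz3, a zinc finger factor, was at 85.6, 151, 167, 206 and 312 CPM, with 1.05 (0.73 to 1.38), and at just over 100 and at 166 CPM in other nuclei of 5xFAD and this library. Lama2 was at -2.12 (-3.12 to -1.23).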

How the data were processed

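RNA and open chromatin were measured in the same nuclei of 5 hippocampus libraries, released from tissue with a Dounce homogenizer and cleaned on iodixanol, per the labels' protocols. The authors deposited whole-number counts per gene and peak for each nucleus in 10x matrices. Per the submitters' processing notes, Cell Ranger ARC 2.0.0 and Seurat were used with mm10; peaks are listed separately in each library.

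The gene rows gave the UMI counts used here. Members followed the rule in the results, and mature oligodendrocytes and astrocytes, used for comparison, followed fixed marker rules. The members and the 26 lists of 414 genes were chosen with earlier results of these data known. UMIs were summed over members, scaled to CPM and compared as log2 ratios with exact conditional binomial 95% intervals; shares have Clopper-Pearson intervals. A gene with at least 60 UMIs over 2 libraries was called at 1.5-fold. Besides list genes, those among the 10 highest and 10 lowest ratios of a comparison, with a CPM in OPCs of the 2 libraries together at least as high as in all their other nuclei, were named (mitochondrial, sex-linked and numbered gene models left out). No doublet caller was run; nuclei with signs of both sexes or over 3 times the median UMIs were removed as an alternative. Peaks were compared between libraries by overlap. Alternatives are given in the closing section. The log2 ratios, their intervals and the call at 1.5-fold were tested on simulated counts without variation between nuclei. The other steps were not tested on simulated data. Python 3.11.15, numpy 2.4.6, scipy 1.17.1, pandas 2.3.3 and matplotlib 3.10.9 were used. A few list genes are not reported here by name, but stay in the counts and medians of their lists.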

Additional observations from a re-analysis of the deposited data

How the results depend on the processing

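The members, lists and libraries limit these results in plain ways: 1 library per group, 104 to 142 nuclei in each, and levels that for many genes rest on under 100 UMIs. No paired analysis was possible because only 1 library stands for a group. The share of OPCs kept its value within its interval under all 4 alternatives (1000 detected genes, at most 5% mitochondrial UMIs, no nuclei with signs of both sexes, a stricter marker rule). Peaks chosen at 8-fold instead of 4-fold had higher medians over other nuclei, 12.7-fold in 5xFAD, 11.9-fold in astrocyte specific, 12.9-fold in neuron specific and 12.01-fold in global MAGL-KO, as the choice itself requires in wild type, and 73.7% to 91.9% of them were listed again. The planned search for motifs in OPC-high peaks was not run, since the only sequences used here were those of RefSeq promoters. Size factors, a pseudocount of 5 CPM and the stricter marker rule left every count and list median where it was, by the criterion of 1.5 times for counts and the counting interval for medians. Of 811 values of single genes under an alternative, each with at least 20 UMIs there, 36 changed sign, 23 of them where the counting interval of the reported value excluded 0, and of 740 list medians 147 changed sign, 15 of them where it did. Removing nuclei or thinning leaves fewer UMIs and raises the counting error of ratios. A lower or higher minimum tests more or fewer genes. The counts of called genes can therefore move without a difference in level. The cause of the other differences was not tested.

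With each member thinned to 1000 UMIs, the called genes were 781 higher and 850 lower for 5xFAD against wild type, 903 higher and 744 lower for the astrocyte specific MAGL-KO, 1030 higher and 858 lower for the neuron specific MAGL-KO and 917 higher and 769 lower for the global MAGL-KO. The list medians in 5xFAD against wild type were GABA receptors -0.27, myelin genes 0.94 and neuron markers 0.13. List medians for the global MAGL-KO were adhesion genes 0.052, astrocyte markers -0.13, committed genes -0.046, matrix genes 0.090, myelin genes -0.35, neuron markers 0.50, respiratory chain genes 0.96 and rule markers 0.081. Log2 ratio in the global MAGL-KO was Enpp6 0.17.

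In members with Xist alone, the called genes were 423 higher and 565 lower for 5xFAD against wild type, 798 higher and 431 lower for the astrocyte specific MAGL-KO, 920 higher and 393 lower for the neuron specific MAGL-KO and 724 higher and 615 lower for the global MAGL-KO. For 5xFAD against wild type the list medians were committed genes -0.17, myelin genes -0.080, neuron markers -0.98, progenitor factors 0.26 and rule markers 0.31. Medians of lists in the astrocyte specific MAGL-KO were astrocyte markers -0.028, committed genes 0.58, differentiation factors 0.30, myelin genes 0.74, neuron markers 0.95 and rule markers -0.41. The list medians in the neuron specific MAGL-KO were astrocyte markers -0.13, neuron markers 1.51, progenitor factors -0.064 and rule markers -0.19. List medians for the global MAGL-KO were astrocyte markers 0.18, differentiation factors -0.46, neuron markers 2.30, progenitor factors -0.65, respiratory chain genes -0.57 and rule markers -0.57. The log2 ratios for 5xFAD against wild type were Enpp6 -0.021, Etv4 0.021, Grin2a -2.44, Spry2 0.45 and Tcf7l2 -0.12. For the global MAGL-KO the log2 ratio was Top2a 0.34.

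In members with Y-linked UMIs alone, the called genes were 607 higher and 498 lower for 5xFAD against wild type, 519 higher and 596 lower for the astrocyte specific MAGL-KO, 709 higher and 904 lower for the neuron specific MAGL-KO and 601 lower for the global MAGL-KO. For 5xFAD against wild type the list medians were adhesion genes -0.20, astrocyte markers -0.36, committed genes 0.78, growth factor genes -0.41, myelin genes 1.98, neuron markers 0.37, progenitor factors -0.53 and rule markers -0.50. Medians of lists in the astrocyte specific MAGL-KO were astrocyte markers 0.10, committed genes -0.017 and myelin genes -0.20. The list medians in the neuron specific MAGL-KO were MHC and interferon genes 0.11, astrocyte markers 0.046 and neuron markers -0.78. List medians for the global MAGL-KO were Wnt genes 0.34, adhesion genes 0.12, astrocyte markers -0.13, matrix genes 0.19, neuron markers -0.28, progenitor factors 0.28 and rule markers 0.24. Gene ratio (log2) in the astrocyte specific MAGL-KO was Ptgds -1.51. Log2 ratios in the global MAGL-KO were Celf2 -0.28, Gria1 -0.54, Grin2b -0.69 and Syt1 -0.54.

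With a minimum of 20 UMIs, the called genes were 675 higher and 794 lower for 5xFAD against wild type, 1287 higher and 530 lower for the astrocyte specific MAGL-KO, 1409 higher and 675 lower for the neuron specific MAGL-KO and 1022 higher and 840 lower for the global MAGL-KO.

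With a minimum of 200 UMIs, the called genes were 21 higher and 10 lower for 5xFAD against wild type, 32 higher and 28 lower for the astrocyte specific MAGL-KO, 49 higher and 40 lower for the neuron specific MAGL-KO and 87 higher and 47 lower for the global MAGL-KO.

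With the mean of CPM over nuclei, for the global MAGL-KO the list medians were committed genes -0.12 and myelin genes -0.37.

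Without committed members, the called genes were 331 lower for the neuron specific MAGL-KO. Median of a list in 5xFAD against wild type was myelin genes 0.13. The list medians in the astrocyte specific MAGL-KO were astrocyte markers 0.099 and myelin genes 1.06. List median for the neuron specific MAGL-KO was committed genes 0.12. For the global MAGL-KO the list medians were astrocyte markers -0.23, committed genes -0.17 and myelin genes 0.11. The log2 ratios for 5xFAD against wild type were Pik3r3 -0.42 and Tcf7l2 -0.30. For the neuron specific MAGL-KO the log2 ratio was Col9a3 -0.076. Gene ratios (log2) in the global MAGL-KO were Mbp 0.17 and Pik3r3 0.37.

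Without likely doublets, medians of lists in 5xFAD against wild type were astrocyte markers -0.14 and neuron markers 0.0014. The list median in the astrocyte specific MAGL-KO was astrocyte markers 0.054. List median for the neuron specific MAGL-KO was astrocyte markers -0.044. For the global MAGL-KO the list median was astrocyte markers 0.17. Log2 ratio in the astrocyte specific MAGL-KO was Grin2b -0.032.

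Without members holding other cell types' markers, the called genes were 699 higher and 695 lower for 5xFAD against wild type, 753 higher and 498 lower for the astrocyte specific MAGL-KO, 980 higher and 720 lower for the neuron specific MAGL-KO and 766 higher and 652 lower for the global MAGL-KO. Medians of lists in 5xFAD against wild type were astrocyte markers -0.055, differentiation factors -0.23, matrix genes -0.41 and neuron markers 0.56. The list medians in the astrocyte specific MAGL-KO were astrocyte markers 0.27, committed genes 0.042, matrix genes 0.28 and myelin genes 0.070. List medians for the neuron specific MAGL-KO were astrocyte markers -0.15, committed genes -0.054 and myelin genes -0.36. For the global MAGL-KO the list medians were astrocyte markers -0.087, myelin genes 0.22 and rule markers -0.47. The log2 ratio for 5xFAD against wild type was Tcf7l2 -0.075. For the astrocyte specific MAGL-KO the log2 ratio was Grin2b -0.88. Gene ratios (log2) in the neuron specific MAGL-KO were Bcas1 -0.079 and Gpr17 -0.054.

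Without the leading nuclei, log2 ratio in the astrocyte specific MAGL-KO was Ptgds -0.15.

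Thinned to 1000 UMIs, the share of OPCs with a UMI of the 4 committed genes was 26.9% in wild type, 26.0% in 5xFAD, 41.5% in astrocyte specific, 40.8% in neuron specific and 33.3% in global MAGL-KO. The share with a UMI of the 10 cell division genes is a wider measure than the 5 UMIs of a mitotic nucleus. It was 3.73%, 2.88%, 4.24%, 3.52% and 3.51% in the same order, so wild type lay above 5xFAD by this measure. With a window of 500 bases the log2 promoter ratio over other nuclei was 0.36 for Fyn and 1.57 for Mag, against 0.22 and 1.07 with 1000 bases. The alternatives without committed members and without the leading nuclei were chosen after seeing the data.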
